A study of Arabidopsis thaliana with 3 samples.

Results

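The distal arm islands described here are 1811 short stretches of Arabidopsis thaliana leaf chromatin that were enriched for the histone variants H2A.W.6 and H2A.W.7 at the same place, far from the centromeres. An island is an H2A.W.6 region of the chromosome arms that overlaps an H2A.W.7 region by 1 bp or more and whose midpoint lies over 2 Mb outside the centromeric part of its chromosome. The rule left out midpoints at 10.4 to 19.5 Mb of chromosome 1, 0 to 9.3 Mb of chromosome 2, 9.4 to 17.9 Mb of chromosome 3, 0 to 8.1 Mb of chromosome 4 and 7.8 to 16.7 Mb of chromosome 5. This keeps 8 arm ends with 75.2 Mb of sequence, 2 each on chromosomes 1, 3 and 5 and the right one alone on chromosomes 2 and 4. The islands are 1811 of the 18107 H2A.W.6 regions of the series and of the 3501 arm regions that both variants share. Of 2080 distal regions in the H2A.W.6 list, 87.1% shared a base with the H2A.W.7 list, and nothing is read from that share because the rule used it. The islands were thus chosen by their H2A.W.6 and H2A.W.7 calls, so that both variants occur in them is no finding.

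The leaves were 2 to 3 weeks old, and the labels name no genotype, strain or treatment, so the 3 libraries are told apart by the immunoprecipitation alone: H2A.W.6, H2A.W.7 and a control. Nuclei from 4 g of leaves were treated for 15 min with an enzyme that cuts the linker DNA between nucleosomes, micrococcal nuclease, and 50 bp were read from both ends of the DNA. Leaf tissue mixes cell types, so an island cannot be assigned to any of them. Each immunoprecipitation is 1 library, the lists give positions without heights or counts, the depth is unknown, and no difference between the variants or between kinds of region has a replicate test. Intervals below are 95% Wilson or order-statistic intervals over regions or genes. They cover counting error only and treat neighbours as independent, which they are not. Ranges over chromosomes show how even a value is along the genome.

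H2A.W is the plant class of histone H2A that marks heterochromatin, the compact and mostly silent chromatin around centromeres. Its C-terminal tail is known to help nucleosome fibres associate, and it is known to act beside DNA methylation and methylated lysine 9 of histone H3 in silencing transposons. In Arabidopsis most heterochromatin lies around the centromeres, and the gene-rich arms hold scattered transposons and repeats that are packed in the same way. The tail of H2A.W.7 also has a site for the DNA damage kinase ATM, which H2A.W.6 lacks.

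Islands were short and took up little of the arms. They covered 1009 kb, which is 1.34% of the distal arms, at 24.1 islands per Mb. The shortest was 200 bp, the least length found in the arm lists, the median was 370 bp (interval 355 to 380) and the longest was 5475 bp. The middle of the distribution, from the lower to the upper quartile, ran from 260 to 645 bp. The 639 islands under 300 bp were 35.3% of all, while the 217 islands of 1000 bp or more were 12% of all and held 36% of the covered bases. Chromosome medians ranged from 340 to 380 bp, so length was similar on all 5 chromosomes.

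Islands were shorter than the shared arm regions nearer the centromeres and longer than the distal regions found in a single list. Absence from a list is the lack of a call and does not show that the variant was absent. The 1690 shared arm regions within 2 Mb of the centromeric part had a median of 400 bp (interval 380 to 415), and 14.9% of them reached 1000 bp. The 269 distal H2A.W.6 regions with no H2A.W.7 base had a median of 255 bp (245 to 270), and 2 of them reached 1000 bp. The 2697 distal H2A.W.7 regions with no H2A.W.6 base had a median of 334 bp (325 to 340), and 3.34% of them reached 1000 bp. A longer region has more chance to meet the other list, so the rule itself favours length among the islands.

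**Figure D1:**
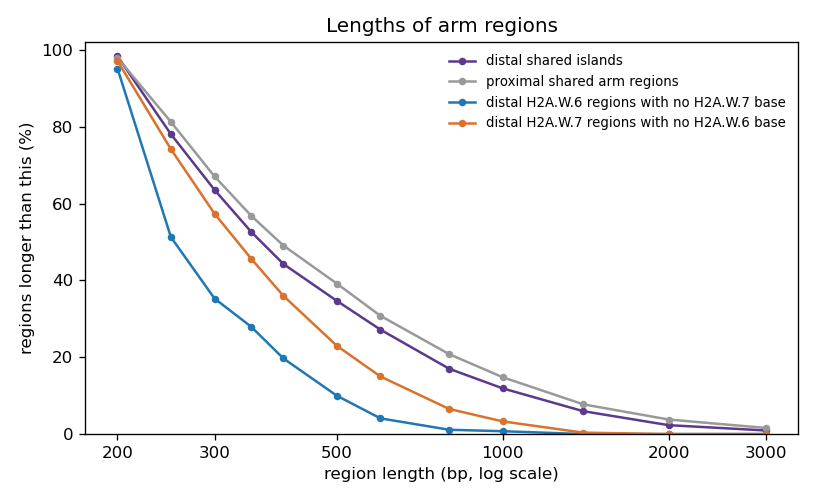
Share of regions (percent, vertical axis) longer than the length on the horizontal axis (bp, log scale) for the islands, the shared arm regions nearer the centromeres and the distal regions found in 1 list alone. The islands run just below the nearer shared regions, and 12% of them reach 1000 bp, against 0.743% of the distal H2A.W.6 regions with no H2A.W.7 base.

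Islands were most frequent next to the centromeric side and sparse towards the chromosome ends. Between 2 and 4 Mb from the centromeric part lay 782 islands, 43.2% of all. The arms differ in length, so 8 arms entered the classes up to 8 Mb, 7 that at 8 to 10 Mb and 6 that beyond. Density was 47 islands per Mb at 2 to 3 Mb, 50.8 at 3 to 4 Mb, 34.1 at 4 to 5 Mb, 27.4 at 5 to 6 Mb, 18.9 at 6 to 7 Mb, 19.3 at 7 to 8 Mb, 12.2 at 8 to 10 Mb and 5.19 beyond 10 Mb. A single tRNA gene array on chromosome 1 held 47 of the 406 islands at 3 to 4 Mb. A single tandem gene array on chromosome 4 held 43 of the 273 at 4 to 5 Mb. Both arrays are described below, and densities without them were not computed. Pseudogenes, the class in which this annotation holds most transposon genes, thinned out along the same axis, with 17.5 per Mb at 2 to 3 Mb and 4.39 beyond 10 Mb. Islands per annotated pseudogene were 2.69 at 2 to 3 Mb and 1.18 beyond 10 Mb. These counts include pseudogenes marked as transcribed, 391 of the 794 in the distal arms, which islands seldom covered. Whether the mix of the kinds changes the ratio along the arms was not tested. Protein-coding genes ran slightly the other way, with 259 per Mb at 2 to 3 Mb and 294 beyond 10 Mb.

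The gradient was found on 7 of the 8 arms. On the left arm of chromosome 1, density was 18.6 islands per Mb beyond 5 Mb from the centromeric part and 52 per Mb at 2 to 5 Mb. The ratio of outer to inner density ranged from 0.202 on the right arm of chromosome 4 to 0.641 on the left arm of chromosome 5. The tandem gene array held 43 of the 175 inner islands of that chromosome 4 arm. The tRNA gene array held 47 of the 184 inner islands of the right arm of chromosome 1, where the ratio was 0.212. The right arm of chromosome 3 ran the other way, with 26.6 islands per Mb beyond 5 Mb and 20.3 per Mb at 2 to 5 Mb, a ratio of 1.31. Its distal part spans 5.56 Mb, so it is absent from the distance classes beyond 8 Mb. Over whole arms, the density lay between 17.8 islands per Mb on the left arm of chromosome 3 and 28.3 on the left arm of chromosome 1. Island length hardly varied along the arms, with a median of 375 bp at 2 to 4 Mb and 350 bp beyond 8 Mb (intervals 350 to 395 and 310 to 375).

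**Figure D2:**
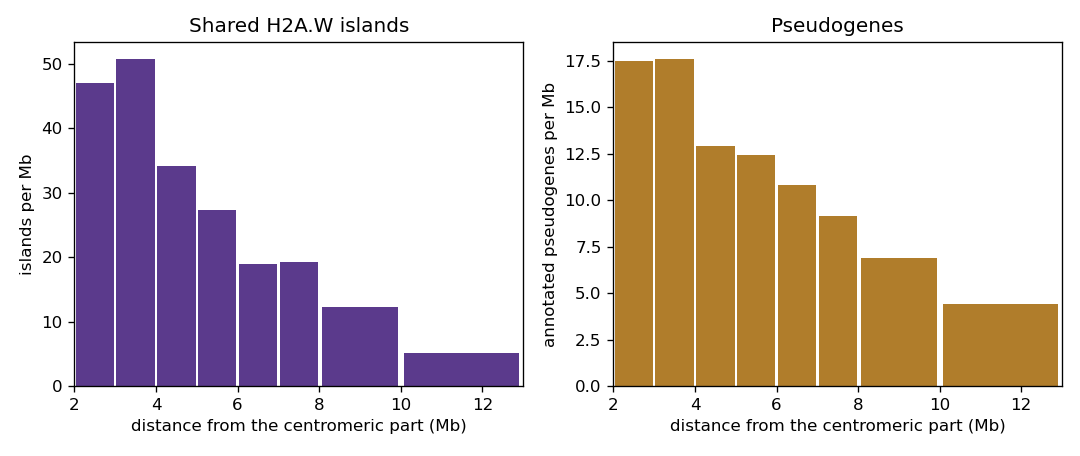
Islands per Mb (left panel) and annotated pseudogenes per Mb (right panel) against the distance from the centromeric part in Mb, where each bar is 1 distance class. The bars rest on 8 arms up to 8 Mb, 7 arms at 8 to 10 Mb and 6 arms beyond 10 Mb. Islands stand at 50.8 per Mb at 3 to 4 Mb and at 5.19 per Mb beyond 10 Mb, and pseudogenes at 17.6 and 4.39. The bar at 3 to 4 Mb includes 47 islands of a single tRNA gene array, and that at 4 to 5 Mb includes 43 of a single tandem gene array.

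Islands came in tight groups with long empty stretches between them. Of the 1803 gaps between neighbouring islands, 1007 (55.9%) were 1000 bp or less 143 (7.93%) were over 1 kb and up to 5 kb, 135 (7.49%) were over 5 kb and up to 20 kb, and 518 (28.7%) were over 20 kb. The median gap was 585 bp and the mean gap 40.7 kb. All 3982 H2A.W.6 arm regions, and all but 2 of the H2A.W.7 arm regions, started and ended on a grid of 5 bp. Gaps of 5 bp occurred 148 times, so many neighbours were split by a break of 1 grid step. H2A.W.7 covered the whole gap in 349 of the 448 gaps of 100 bp or less (77.9%), in 182 of the 559 gaps over 100 bp and up to 1000 bp (32.6%), and in 1 of the 796 longer ones. The broken stretches in H2A.W.6 were thus often unbroken in H2A.W.7.

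Islands linked across gaps of up to 5 kb made 661 groups, 8.78 per Mb. Of these, 332 groups (50.2%) were a lone island, 218 had 2 to 4 islands and 111 had 5 or more. The groups of 5 or more held 893 islands and 57.3% of the covered bases. Groups of at least 2 islands spanned a median of 2.9 kb, and the gap from group to group had a median of 61 kb (quartiles 25.5 and 134 kb). Every arm also had a long stretch without an island. The longest was 1240 kb on the left arm of chromosome 3, from 452176 to 1692660, and the shortest of these arm maxima was 400 kb on the right arm of that chromosome.

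The group with most covered bases was a tandem gene array on chromosome 4, from 11036601 to 11093070. It held 43 islands, which covered 27 kb or 47.7% of its 56.5 kb, and H2A.W.7 covered 45.5% of the same span. It includes 3 pseudogenes and 21 protein-coding genes from AT4G20520 to AT4G20670, many of which have the same length and lie in alternation. The 5 genes of 861 bp (AT4G20535, AT4G20545, AT4G20555, AT4G20565 and AT4G20575) had 79.7% to 97.3% of the body in islands and 77.8% to 88.3% in H2A.W.7. The 6 genes of 1336 bp in the array had 0% to 47.9% in islands and 0% to 26.9% in H2A.W.7. The 7 genes of 1013 bp had 0% to 42.7% in islands and 0% to 65.6% in H2A.W.7, and 4 of them had no island base. From AT4G20530 to AT4G20575, genes of 1336 and 861 bp took turns, and high cover took turns with low cover in both variants. Similar copies can share reads, and how such reads were placed is not given in the sources used here, so values of single copies are uncertain.

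The next group was the array of tRNA genes on chromosome 1, from 21268806 to 21308700, with 27 serine and 54 tyrosine tRNA genes. Its 47 islands covered 20 kb or 50.1% of 39.9 kb, and H2A.W.7 covered 43.1%. Of the 81 tRNA genes in the span, 52 had at least 50% of the body in islands and 27 had no island base. Serine tRNA genes were covered in 16 of 27 cases (59.3%, interval 40.7 to 75.5) and tyrosine tRNA genes in 36 of 54 (66.7%, 53.4 to 77.8), with intervals that overlap. Both variants covered 50% or more of 45 of the 81 genes. These 52 were all of the covered tRNA genes among 511 in the distal arms, whose percentage was 10.2%. The same limit on reads of near-identical copies holds here.

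The other 3 of the 5 groups with most covered bases were runs of pseudogenes. On chromosome 2, from 10590036 to 10608215, 12 islands covered 14.7 kb or 80.7% of the span, H2A.W.7 covered 92.7%, and 6 pseudogenes from AT2G24890 to AT2G24930 and the protein-coding gene AT2G24880 lay there. On chromosome 3, from 8843711 to 8858255, 7 islands covered 91.6% of the span and H2A.W.7 covered 80.7%, over the 5 pseudogenes AT3G24365 to AT3G24390. On chromosome 1, from 9676901 to 9690615, 8 islands covered 91.1% and H2A.W.7 covered 85%, over the 5 pseudogenes AT1G27780 to AT1G27815. These runs were covered more densely than the 2 arrays.

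H2A.W.7 lay over nearly all of most islands and reached past their edges. Of the island bases, 88.3% were also in H2A.W.7 regions, and the median island lay wholly under H2A.W.7, with a lower quartile of 90.6%. In 1042 islands (57.5%, interval 55.2 to 59.8) the whole island lay inside a single H2A.W.7 region. Another 625 islands (34.5%) were staggered against H2A.W.7 and 144 (7.95%) held their H2A.W.7 regions whole. The rule asked for 1 bp, so the extent was not fixed by it, but it comes from the same pair of lists and is a description.

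Of the 3622 island edges, 2912 (80.4%) lay inside H2A.W.7, which went on past the edge for a median of 245 bp (quartiles 90 and 600 bp). Where the edge lay outside H2A.W.7, in 710 cases, the island reached past H2A.W.7 by a median of 75 bp. The islands met 1624 H2A.W.7 regions with a median of 610 bp, and 67.6% of the bases of those regions were inside islands. Of these H2A.W.7 regions, 390 met 2 or more islands, and 1 of them met 11.

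Short islands sat inside H2A.W.7, and long ones met several H2A.W.7 regions. Of the 639 islands of 200 to 299 bp, 76.1% lay inside a single H2A.W.7 region (interval 72.6 to 79.2). The share was 61.2% at 300 to 499 bp, 44% at 500 to 999 bp, 22.3% at 1000 to 1999 bp and 9.52% in the 42 islands of 2000 bp or more (3.77 to 22.1). The share of bases under H2A.W.7 differed less, 94.7% in the shortest class and 87.8% in the longest. A short stretch fits inside another region more easily, so nesting alone depends on length. Chromosome 4 stood lowest, with 42.2% of its 263 islands inside a single H2A.W.7 region, against 57% to 64.9% on the other 4 chromosomes.

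**Figure D3:**
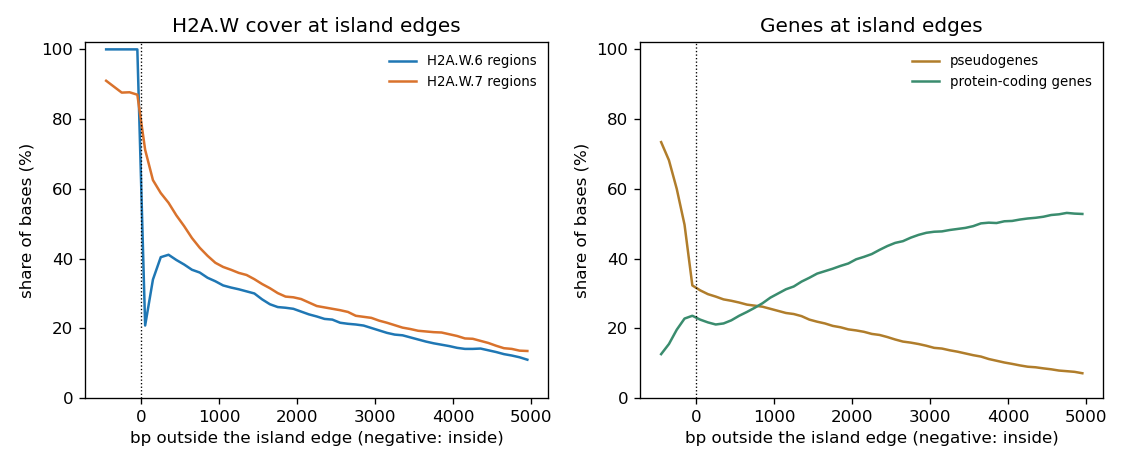
Share of bases (percent) in H2A.W.6 and H2A.W.7 regions (left panel) and in pseudogenes and protein-coding genes (right panel) in 100 bp steps from the edges of the islands, with negative distances inside and the dotted line at the edge. In the first 100 bp outside, H2A.W.6 is at 20.8% and H2A.W.7 at 71.2%, and the inner steps rest on fewer edges (434 at the innermost) because short islands do not reach them.

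Past the edges, both variants returned towards the arm level over several kb. H2A.W.6 covered 20.8% of the first 100 bp outside, 41.1% at 300 to 400 bp, where neighbouring islands lie, and 11% at 4900 to 5000 bp. H2A.W.7 covered 71.2%, 56% and 13.5% at the same distances. Over the distal arms as a whole, H2A.W.6 took 1.45% and H2A.W.7 took 3.21% of the bases. The dip of H2A.W.6 beside the edge follows from the edge being the end of an H2A.W.6 region, and neighbouring islands share flanks, so flanking bases were counted more than once. Pseudogenes made up 30.9% of the first 100 bp outside and 7.12% at 4900 to 5000 bp, while protein-coding genes made up 22.5% and 52.8%.

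Pseudogenes took 49.3% of the island bases, against 1.81% of all distal arm sequence. The range over the 5 chromosomes was 45.4% to 54.2%. Protein-coding genes took 19.3% of the island bases and 66.6% of the distal arms, RNA genes took 1.64% and 1.32%, and sequence outside annotated genes took 29.7% and 30.3%. The annotation lists transposons only where they are genes, so fragments of transposons would count as outside genes. Of the islands, 698 (38.5%) met a pseudogene, 494 (27.3%) a protein-coding gene and 562 (31%) no annotated gene at all.

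Distal islands and nearer shared regions had like pseudogene shares, 49.3% and 48.7%, with chromosome ranges of 45.4% to 54.2% and 39.2% to 51.2%. The protein-coding share was 19.3% under the distal islands (17.1% to 24.2%) and 12.4% under the nearer shared regions (8.82% to 15.7%). The distal H2A.W.6 regions with no H2A.W.7 base had 36.5% in pseudogenes and 40.4% in protein-coding genes. The distal H2A.W.7 regions with no H2A.W.6 base had 4.11% in pseudogenes and 79% outside genes. Whether a region meets both lists was the rule, and the annotation was not part of it, but with 1 library each these differences have no test.

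What lay under an island went with its length. Pseudogenes took 17.9% of the bases of islands of 200 to 299 bp, 28.4% at 300 to 499 bp, 49.1% at 500 to 999 bp, 68.6% at 1000 to 1999 bp and 86.2% at 2000 bp or more. Sequence outside genes took 54.8% in the shortest class and 12% in the longest. Protein-coding genes took 23.8% in the shortest class and 1.87% in the longest.

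**Figure D4:**
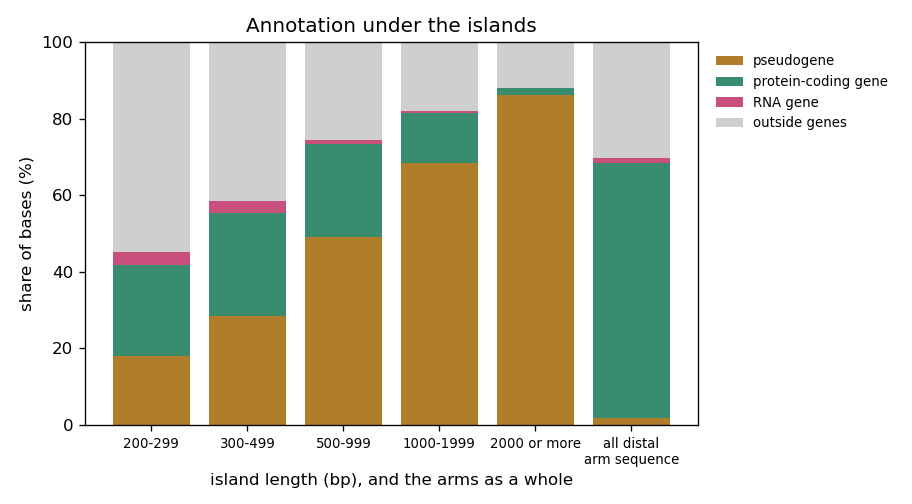
Share of bases (percent) in pseudogenes, protein-coding genes, RNA genes and outside genes, as stacked bars for the islands in 5 length classes (bp) and for the distal arms as a whole. The pseudogene share is 17.9% in islands of 200 to 299 bp, 86.2% in those of 2000 bp or more and 1.81% in the arms.

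By the class that holds 50% or more of their bases, 707 islands (39%) lay outside genes, 634 (35%) on pseudogenes, 432 (23.9%) on protein-coding genes and 35 (1.93%) on RNA genes. Pseudogene islands had a median of 588 bp (interval 550 to 635), protein-coding ones 355 bp (340 to 380) and those outside genes 295 bp (285 to 305). The 162 pseudogene islands of 1000 bp or more were most of the long islands. A single H2A.W.7 region held 42% of the pseudogene islands (38.2 to 45.8), 60% of the protein-coding ones (55.3 to 64.5) and 69% of those outside genes (65.5 to 72.3). Of the islands outside genes, 226 (32%) shared a group with a pseudogene island, and 460 of the 661 groups had no pseudogene island.

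All of the 10 longest islands lay over pseudogenes. The longest, chromosome 5 from 21831511 to 21836985, held all of AT5G53775 and was under H2A.W.7 for 5105 of its 5475 bp, in 6 regions. The next, chromosome 2 from 10594571 to 10599525, met AT2G24890, AT2G24900, AT2G24910 and AT2G24915, and all of its 4955 bp lay in 1 H2A.W.7 region. Chromosome 1 from 9005416 to 9010045 held AT1G25784 and was under H2A.W.7 for 90.8% of 4630 bp. In 9 of these 10 islands H2A.W.7 was broken into 3 to 7 regions where H2A.W.6 was continuous, the opposite of the short islands.

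The other 7 of the 10 longest were 3510 to 4565 bp long, with 79.6% to 99.5% under H2A.W.7. Chromosome 5 from 17304461 to 17309025 held AT5G43105, and chromosome 2 from 12449656 to 12454120 met AT2G28980. Chromosome 1 from 22100961 to 22105190 met AT1G60020, and chromosome 1 from 21245466 to 21249435 met AT1G56675. Chromosome 3 from 8849976 to 8854070 met AT3G24380, AT3G24385 and AT3G24390, and from 8843711 to 8847220 it met AT3G24365. Chromosome 4 from 14283691 to 14287540 met AT4G28970. Protein-coding genes lay close to several of them, with the nearest gene body 516 bp from the island at AT2G28980 and 653 bp from the island at AT1G25784.

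Among genes with a midpoint in the distal arms, pseudogenes were covered far more often than other genes. With islands over 50% or more of the body as the limit for a covered gene, 416 of 25678 distal genes were covered, 1.62% of all. Pseudogenes numbered 199 covered of 794, or 25.1% (interval 22.2 to 28.2). This class joins pseudogenes that are marked as transcribed, of which 14 of 391 were covered (3.58%, 2.14 to 5.92), and the others, of which 185 of 403 were covered (45.9%, 41.1 to 50.8). The covered share of those not marked as transcribed ranged from 34.1% to 54.7% over the 5 chromosomes. H2A.W.7 covered 50% or more of 186 of the 199 covered pseudogenes.

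Long pseudogenes were covered by islands more often than short ones. Among those not marked as transcribed, 10 of the 50 under 500 bp were covered (20%, interval 11.2 to 33), 55 of the 99 of 2 to 4 kb (55.6%, 45.7 to 65) and 66 of the 98 of 4 kb or more (67.3%, 57.6 to 75.8). Of the 403, 161 had no island base, with a median of 945 bp, and 31 of these carried an H2A.W.7 base. Those with an island base had a median of 2788 bp. Among the 403, mean H2A.W.7 cover differed less by length than mean island cover. It was 41.3% under 500 bp and 57.2% at 4 kb or more, against 18.2% and 60.2% for the islands. By position, 84 of the 149 pseudogenes at 2 to 4 Mb from the centromeric part were covered (56.4%, 48.4 to 64.1), 46 of the 117 at 4 to 6 Mb (39.3%, 30.9 to 48.4), 34 of the 72 at 6 to 8 Mb (47.2%, 36.1 to 58.6) and 21 of the 65 beyond 8 Mb (32.3%, 22.2 to 44.4). The share thus did not decline steadily, and the median lengths of these pseudogenes were 2133, 1487, 2330 and 1670 bp in the same order.

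Known mobile elements and silenced loci carried islands in 8 of 11 distal members of a list of 17, and 6 were covered. The 8 were all pseudogenes in this annotation, of 2 kb or more, for which the background was 55.6% to 67.3% covered. The list was chosen for silenced elements, with earlier results of these data known, so it is a description and no independent sign. ROMANIAT5 (AT3G11970), a Gypsy-type retrotransposon, had 99.1% of its body in 5 islands and 64.7% in H2A.W.7. The VANDAL21 gene AT2G23500, of a Mutator-like DNA transposon, had 100% in 1 island of 2765 bp and 96.8% in H2A.W.7. EVD (AT5G17125), a Copia-type retrotransposon known to become mobile when DNA methylation is lost, had 59.4% in 2 islands and 26.7% in H2A.W.7. H2A.W.7 covered less than the islands did in each of these 3.

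The 5 distal copies of ONSEN, a Copia-type retrotransposon known to be transcribed on heat, had 26% to 87.1% of the body in islands and 16% to 82.1% in H2A.W.7. AT3G59720 was highest, with 6 islands under it. AT3G61330 was lowest, with 2 islands under it. AT1G58140 had 64.6% in islands and 82.1% in H2A.W.7, the only one of the 5 copies where H2A.W.7 covered more than the islands. AT1G11265, with 53% and 51.8%, lies inside the protein-coding gene AT1G11270, and the 6 islands under it are the 6 islands that gave AT1G11270 its 32%. Between copies of the same element, reads cannot always be told apart.

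Beside BNS, a cell-cycle gene known to be silenced when methylation spreads from a neighbouring retrotransposon, 2 islands of 505 and 305 bp stood outside the gene, the nearer 136 bp from it. The BNS body had no island base and no H2A.W.7 base. FWA, a flowering-time gene known to be silenced by methylated repeats at its start, had no island under it or within 1000 bp, and 11.8% of its body was in H2A.W.7. The demethylase gene ROS1 had neither. Of the 5 genes in a list of known heterochromatic introns, all distal, 2 had an island base and 1 of these was covered. They were AT1G11270, with 32% of its body in islands, and AT1G58140, the ONSEN copy with 64.6%. The latter is annotated as a pseudogene and was already counted among the mobile elements. No protein-coding gene of this list was covered. The other 3, IBM1, a histone demethylase gene, RPP7, a resistance gene, and AT3G05410, had no island under or within 1000 bp, and RPP7 had 2.31% of its body in H2A.W.7.

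No island lay under or within 1000 bp of any of the 49 distal genes of the other 5 lists. These lists hold imprinted genes, NLR resistance genes, Polycomb targets, leaf and housekeeping genes, and genes of the silencing machinery. H2A.W.7 met 5 of the 49, at most 19.2% of a body. Across all 20892 distal protein-coding genes, 836 had an island under or within 1000 bp (4.00%), so a count of 0 among 49 is close to the background.

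Protein-coding genes covered by islands were few, short and mostly without a gene symbol. They numbered 133 of 20892, 0.637% (interval 0.537 to 0.754), with 0.427% to 0.789% over the chromosomes. Their median length was 861 bp, and that of all distal protein-coding genes was 2122 bp. A short island fills 50% of a short gene more easily, so the limit itself favours short genes. Under 500 bp 2.97% were covered and 3.78% had any island base, against 0.434% and 1.11% at 4 kb or more. A symbol other than the locus tag was given for 10 of the 133 (7.52%), while 39.6% of distal protein-coding genes have such a symbol. H2A.W.7 covered 50% or more of 125 of the 133. Neighbours were covered together in 16 runs that held 33 of the genes, the longest with 3 genes, AT5G06630 to AT5G06645. The 50% limit mattered, since 309 genes had any island base and 48 were covered at 80%.

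Among protein-coding genes of 1 kb or more, the 10 with the largest island share had 86.5% to 100% of the body in islands. AT1G23915 and AT4G19240 were wholly covered by a single island each and wholly in H2A.W.7. AT3G20030 had 99.6% in islands and 100% in H2A.W.7, AT3G25460 had 89.8% and 99.1%, and AT1G63540 had 89.6% and 96.7%. The order of the variants was the other way at AT4G20650 of the tandem array, with 98.9% in islands and 83.2% in H2A.W.7, and at AT4G22485, with 97.9% and 60.4%. RKF2, a cysteine-rich receptor-like kinase gene, had 88.9% of its 2928 bp in 4 islands and 85% in H2A.W.7. ADR1-L3, a gene of the ADR1 family of helper NLR immune receptors, had 87.8% in 4 islands and 76.1% in H2A.W.7. UBQ13, of the polyubiquitin family, had 86.5% of its 4758 bp in 7 islands and 65.1% in H2A.W.7.

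The other covered genes with a symbol, named after their values were seen, were AGL85, EPR1, CYP705A32, DMT2, EXT10, BGLU12 and LURE1.5. CYP705A32, a cytochrome P450 gene, had 86.2% in islands and 76.4% in H2A.W.7. DMT2, a relative of the maintenance DNA methyltransferase gene MET1, had 52.8% in 5 islands and 37.1% in H2A.W.7. The cell wall protein genes EPR1 and EXT10, whose coding sequence is repetitive, had 63.5% and 59% in islands and 43.6% and 44% in H2A.W.7. AGL85, a MADS-box gene, had 51.2% in islands and 100% in H2A.W.7. LURE1.5, of a family of pollen tube attractant peptides, had 55.9% and 56.2%, and the beta glucosidase gene BGLU12 had 52.3% and 71.6%.

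Most protein-coding genes that an island touched kept most of their body clear of it. An island lay wholly inside a protein-coding gene in 345 cases (19.1%), across a gene edge in 137 (7.56%) and over a whole gene in 12. The 345 islands fell in 213 genes, of which 133 had under 50% of the body in islands. In 153 islands, from 84 genes, both gene edges were at least 500 bp away. Exons and introns were not used here. Among genes under 50% in islands, the longest island this deep inside a gene was 1160 bp in AT3G60950, from 22526991 to 22528150 of chromosome 3. The next was 1100 bp in AT5G17165, from 5644276 to 5645375 of chromosome 5 and wholly under H2A.W.7. AT2G34100, a gene of 13956 bp, had 33.8% of its body in islands, 4 of them among the 12 longest of this kind. Of these 4, the islands from 14409241 to 14409840 and from 14411316 to 14411965 lay mostly on annotated pseudogene sequence within the gene span. Part of the cover of this gene is thus cover of a pseudogene.

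RNA genes of all kinds were covered in 84 of 3992 cases (2.10%), and 52 of the 84 were the tRNA genes of the array. Of 210 distal miRNA genes 4 were covered (1.90%), MIR5639, MIR8171 and MIR4239 wholly and MIR5665 over 69.1% of its body. H2A.W.7 covered 98.7% of MIR5639, 100% of MIR8171 and MIR4239, and 78.5% of MIR5665. Long non-coding RNA genes were covered in 20 of 2473 cases (0.809%). Genes typed as other non-coding RNA were covered in 3 of 141 cases (2.13%) and those typed as miscellaneous RNA in 4 of 298 (1.34%). No island base fell in the 230 snoRNA genes, which guide RNA modification (interval 0 to 1.64), or in the 67 antisense RNA genes (0 to 5.42). Among 62 small nuclear RNA genes 1 was covered (1.61%), U5.8, which lay wholly in an island, and U6.8p had 33.3% of its body in one. The RNA genes with a symbol were named after their values were seen.

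Islands without a protein-coding base lay farther from protein-coding genes than points between such genes did. Among the 1316 islands with no protein-coding base and a gene on both sides, the nearest protein-coding gene was a median of 1518 bp away (interval 1398 to 1633), and 36% lay within 1000 bp of one. Points set every 25 bp between distal protein-coding genes had a median distance of 580 bp, with 67.2% within 1000 bp. The nearer shared regions had a median of 1861 bp (1761 to 1980). Distal H2A.W.6 regions with no H2A.W.7 base had 2290 bp (2004 to 2928) and distal H2A.W.7 regions with no H2A.W.6 base had 622 bp (589 to 670). The median of the islands lay between the medians of the regions found in a single list.

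Pseudogene islands lay a median of 2118 bp from the nearest protein-coding gene (interval 1950 to 2268), and islands outside genes 1082 bp (995 to 1232). Within 1000 bp of a gene lay 23.7% of the pseudogene islands (20.5 to 27.3) and 46.4% of the islands outside genes (42.7 to 50.2). The genes flanking an island were a median of 7.02 kb apart.

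The share of gaps between neighbouring protein-coding genes that held an island base was 0.609% (64 of 10512) for gaps under 1 kb. It was 2.72% at 1 to 2 kb, 7.83% at 2 to 5 kb, 22.5% at 5 to 10 kb and 48.7% at 10 kb or more (56 of 115, interval 39.8 to 57.7). A wide gap has more room for an island. The share of gap bases in islands was 0.338% under 1 kb, 0.569% at 1 to 2 kb, 1.42% at 2 to 5 kb, 6.36% at 5 to 10 kb and 18.6% at 10 kb or more. Pseudogenes were not counted as genes here, and their part in these shares was not tested. Islands beside genes were a small class seen from the genes: 527 of the 20892 distal protein-coding genes (2.52%) had no island base in the body and an island within 1000 bp, 13 of them on both sides.

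**Figure D5:**
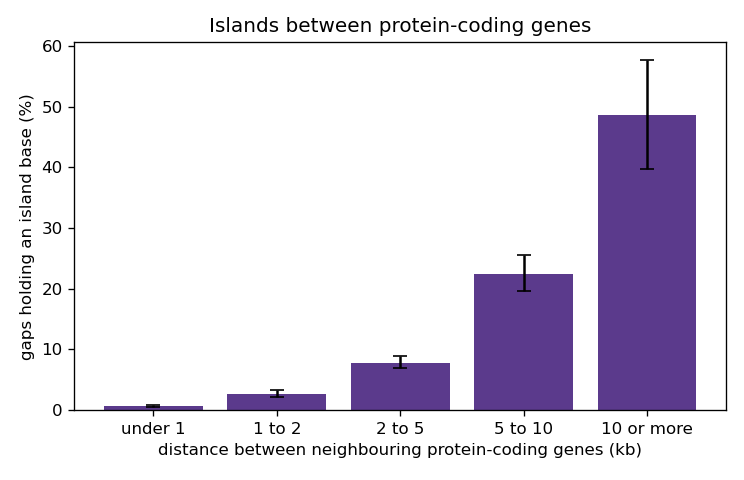
Share of the gaps between neighbouring distal protein-coding genes that hold an island base (percent, bars with 95% Wilson intervals) by the width of the gap in kb. The share is 0.609% for gaps under 1 kb and 48.7% for gaps of 10 kb or more.

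At the 2 Mb border, the members just inside were 3 islands of chromosome 5 between 16699411 and 16702850, of 1615, 1265 and 550 bp. Just outside it were shared regions of 350 and 335 bp on chromosome 4, 12.1 and 12.5 kb from the border, and of 245 bp on chromosome 5. The smallest overlaps with H2A.W.7 among islands were 5 bp (chromosome 2, 10355736 to 10356620), 10 bp (chromosome 4, 9056026 to 9056330) and 15 bp (chromosome 5, 18103746 to 18104015). In all, 32 islands overlapped H2A.W.7 by under 100 bp, and 58 of the 269 distal H2A.W.6 regions left out had an H2A.W.7 region within 100 bp. Asking for 50% of both regions left 771 islands, and merging regions within 1000 bp left 775.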

How the data were processed

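Chromatin of 3 leaf samples was sequenced, and the authors deposited region lists for 2 of them, each split into arms and a centromeric part. Positions count in TAIR10 and bedtools was used, per the submitters' processing notes. How reads were aligned, which caller and threshold made the regions and whether the control entered, were not given in the sources used here. For the control no file was used. Each region has a start and an end and no other value, so a depth per sample cannot be given.

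Islands were taken from the arm lists by interval overlap in Python 3.11 with numpy 2.4.6, pandas 2.3.3 and scipy 1.17.1. Overlap counts matched bedtools 2.31.1 (3501 shared arm regions), and the calculations were tested on simulated lists with known answers. Genes came from a RefSeq table of TAIR10.1 with 37899 nuclear genes, which gives no strand, exons or sequence. Gene coordinates of it are not printed, and promoters were not analysed here. A base in several gene classes went to pseudogenes first, then protein-coding genes, then RNA genes. Positions are counted from 1.

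The members and the 7 gene lists, with 86 genes and all matched, were chosen with earlier results of these data known. Named were the 10 longest islands, the 5 groups with most covered bases, the 10 protein-coding genes with the largest island share among those of at least 1 kb, list genes with an island under or within 1000 bp, and regions at the thresholds. Any further gene was picked with its values in view.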

Additional observations from a re-analysis of the deposited data

How the results depend on the processing

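The 8 results were recomputed under other choices, which gave 112 values. Of these, 82 lay inside the interval of the share or median, or within 1.5 times the count, and 30 moved further. Leaving out 1 chromosome could not move the counts of islands, groups or covered genes past that limit, since no chromosome held enough of them. For the islands the largest share was 32.1%. Merging within 100 or 1000 bp left 661 and 660 groups, which the linking across 5 kb nearly fixes. Part of the 82 values thus had little or no room to move. Asking for an overlap of 50% of both regions gave 771 islands with a median of 425 bp in 411 groups, 41% inside a single H2A.W.7 region, 83 covered pseudogenes, 64 covered protein-coding genes and 2.08% of protein-coding genes with an island under or within 1000 bp. Merging within 1000 bp gave 775 islands, a median of 550 bp, 76.9% inside a single H2A.W.7 region and 29.2% that met a pseudogene. Stricter lists, of regions at or above the median length of their list, gave 825 islands, a median of 655 bp, 335 groups, 49.1% inside a single H2A.W.7 region, 54.9% that met a pseudogene, 84 covered protein-coding genes and 1.89% with an island near. Merging within 100 bp, chosen after seeing the data, gave a median of 410 bp, 61.4% inside and 33.8% on a pseudogene. The share inside was 61% with 50% of the H2A.W.6 region and 60.1% without chromosome 4. When 80% of the body was asked for, 120 pseudogenes and 48 protein-coding genes were covered, and 309 protein-coding genes had any island base. The share of protein-coding genes with an island near was 4.37% with a border at 1 Mb and 3.61% at 3 Mb, and 2.42% within 500 bp and 6.05% within 2000 bp. The cause of these shifts was not tested. Leaving out the 2 groups with most covered bases, also chosen after seeing the data, moved none of the 8 results this far. No paired analysis was possible because each immunoprecipitation is 1 library. Depth and calling threshold are unknown, and their effect on the number and length of regions was not tested.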
